A study of Oryza sativa with 11 samples.

Results

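The salt response of root tips was examined in FL478, a rice line that tolerates salt, by comparing its 3 salt-stressed arrays with its 3 control arrays out of the 11 rice arrays measured. FL478 is a recombinant inbred line derived from an F2 and carried to the F8, and its close relative IR29, the salt-sensitive genotype, was measured on 2 control and 3 salt arrays. Plants received nutrient solution for 22 days, after which the salt group had NaCl and CaCl2 added at 5:1 in 2 steps over 3 days, reaching 7.4 dS/m (about 60 mM NaCl), and was held there for 5 days. The control group of both genotypes stayed at 1.1 dS/m, and all roots were cut 30 days after germination, keeping the last 2 cm of the tip. Each array carried RNA of a separate biological replicate on the Affymetrix Rice Genome Array, a chip on which a set of short probes reports 1 transcript. The sample labels call the culture hydroponic, whereas the methods describe sand tanks irrigated with nutrient solution. The functions described here are those other than energy metabolism, metal ions, peroxidases and the cell wall.

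Roots facing salt meet both a shortage of water and an excess of ions. Abscisic acid is the hormone that turns on many protective proteins under water shortage, such as the dehydrins and other late embryogenesis abundant (LEA) proteins. Roots also keep a chemical defence in readiness: in rice it includes diterpenoid phytoalexins, antimicrobial compounds (the momilactones, phytocassanes and oryzalexins) made from geranylgeranyl diphosphate by diterpene cyclases and cytochrome P450 enzymes, and pathogenesis-related (PR) proteins. Jasmonate, a lipid-derived hormone made by lipoxygenases, allene oxide synthases and oxophytodienoate reductases, drives much of that defence, and the JAZ proteins that repress it are themselves transcribed in response to it.

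The deposited values are linear signal units, scaled to a common 2% trimmed mean of 500.08 on each array. The median signal of an array was 48.8 to 61.3, and 36.6% to 41.9% of its 57258 probe sets lay under 32 units, so changes of dim probe sets were measured poorly. Every log2 change below is salt minus control on the scale log2(signal + 32), with a standard error (SE) and a p from limma, and a probe set was called where its p, corrected by Benjamini-Hochberg for the 57258 tests, was under 0.10. Across probe sets, the correlation was 0.963 to 0.972 between FL478 replicates and 0.959 to 0.973 between its salt and control arrays. The log2 ratio of the 3' to the 5' GAPDH probe set, a measure of RNA integrity, was 0.77 ± 0.14 under salt and 0.58 ± 0.060 in the control (SD, n = 3 each, two-sided exact permutation p = 0.1, the smallest that 3 against 3 can give). For the actin pair the exact permutation p was 0.4 and for the cyclophilin pair it was 0.5. Precision is limited throughout by the number of arrays. Summed over 14 genes of dividing cells the signal was 13155 to 15651 in the control and 14261 to 18308 under salt, and over 7 genes of xylem with secondary walls 20029 to 23761 and 22191 to 26215. The ranges were 50181 to 54083 and 49106 to 51541 for 5 endodermis genes, 4250 to 4634 and 4123 to 4314 for 3 root hair genes, and 2190 to 3436 and 2136 to 6135 for 7 shoot genes. None of the marker genes was called (limma), their part in the results below was not tested, and a shift in cell types cannot be told apart from a change within cells.

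Salt changed the signal of 97 probe sets in FL478, 0.169% of those tested. Of these 28 rose (0.0489%) and 69 fell (0.121%). They stand for 95 distinct genes or loci, and 82 of the probe sets lay above the median level. The 3 salt arrays did not overlap the 3 control arrays in any of the 97 (14.0% of all probe sets had no overlap). The 97 were chosen by a test on the same arrays, which favours such separation, so it is not further evidence for the calls. A gene or locus could be named for 78, and 51 of them carry a description of function. At an unadjusted p under 0.05 the number was 5136, or 8.97%. With the replicate number as a block (the blocked fit below) 70 of the 97 were still called, and the blocked adjusted p is given beside each gene described that was not. The blocked fit had 5952 probe sets at an unadjusted p under 0.05. The calls rest on few arrays. Without FL478 control replicate 1, 2 or 3 the count was 1, 7 or 1, and without FL478 salt replicate 1, 2 or 3 it was 14, 3 or 24. It was 18 without either IR29 control array and 6, 86 or 86 without IR29 salt replicate 1, 2 or 3, since all arrays share the estimate of the spread. PIR7B was the probe set still called without FL478 control replicate 1 or 3. With the GAPDH ratio as a covariate no probe set was called (3788 had an unadjusted p under 0.05 in limma). All 97 kept their direction and an unadjusted p under 0.05, but they had been chosen for a small p on the same arrays.

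**Figure D1:**
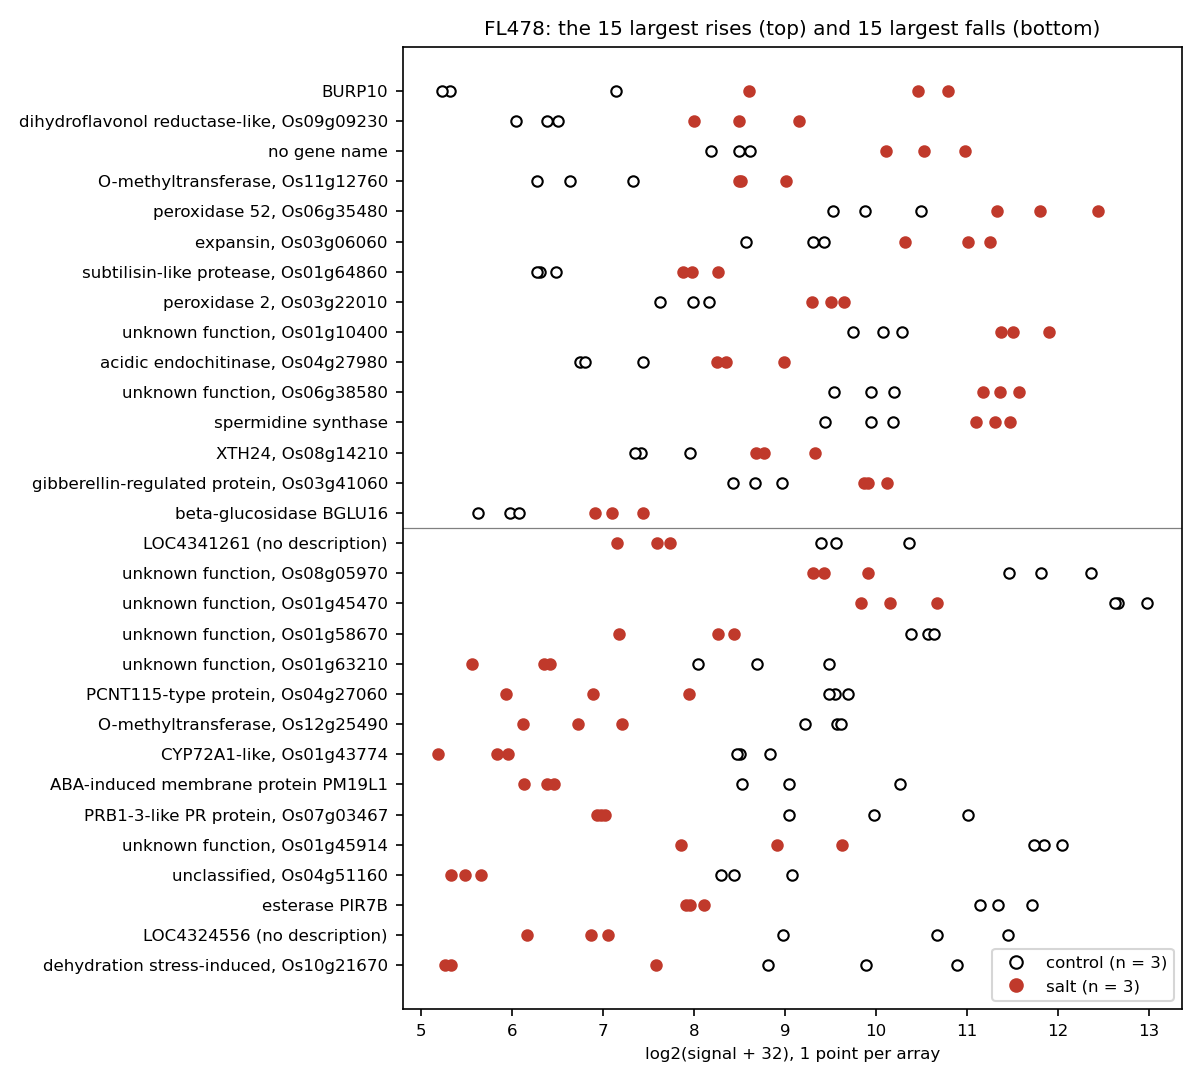
Signals, as log2(signal + 32) on the horizontal axis, of the called probe sets brighter than the median with the 15 largest rises and 15 largest falls in FL478, 1 point per array (open, 3 control; filled, 3 salt). Salt and control points do not overlap in any row, which was a condition for choosing the rows. The largest change is that of BURP10, with controls of 7.9, 5.7 and 109.2 units against 356.7 to 1745.3 under salt.

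Genes listed or described under the water-deficit response moved in opposite directions. BURP10 (LOC_Os06g17000) is described in the study as a polygalacturonase-1 non-catalytic beta subunit precursor. It was listed here through the BURP family, which in Arabidopsis includes the dehydration-responsive RD22. BURP10 had signals of 7.9, 5.7 and 109.2 in the control and 356.7, 1375.5 and 1745.3 under salt. It rose by 4.05 (SE 0.60, adjusted p = 0.070, limma), and the third control array was far above the other two. RAB21 (LOC4350454), a dehydrin that abscisic acid induces, had 4.4, 3.4 and 4.9 in the control and 57.9, 50.9 and 161.1 under salt. Its rise was 1.64 (SE 0.28, adjusted p = 0.0927, and 0.101 in the blocked fit), from a control level under the offset of 32. A second RAB21 probe set had a change of 1.54 (adjusted p = 0.18), with control signals of 68.6, 34.9 and 6.4 and salt signals of 137.5, 121.4 and 214.1. In IR29 the RAB21 probe sets had changes of 0.03 and 0.05, whereas BURP10 had one of 3.16.

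LOC_Os10g21670, described as a dehydration stress-induced protein, had 1866.8, 919.4 and 417.4 units in the control and 6.5, 8.2 and 159.3 under salt, a change of -3.81 on the log2 scale (SE 0.65, adjusted p = 0.0994) that was the largest of all called falls. In the blocked fit its adjusted p was 0.132. In both IR29 groups this gene was dim, between 6.8 and 48.8 units. PM19L1 (LOC_Os05g31670), a plasma membrane protein named for its induction by abscisic acid, had 497.1, 337.9 and 1197.4 in the control and 51.7, 38.3 and 56.3 under salt. It fell by 2.95 (SE 0.47, adjusted p = 0.081). A pair of other genes did not pass the test. SALT, a mannose-binding lectin first described in rice as salt-induced, stood at 7275.7, 4245.4 and 6049.2 in the control and 2698.3, 2221.4 and 3505.1 under salt (-1.04, SE 0.24, adjusted p = 0.20). BURP02 had a change of -2.20 (adjusted p = 0.52) with 9150.5, 16000.8 and 6935.6 against 6503.0, 792.2 and 1924.6 units, so that its spread under salt was wide.

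Over the list of 18 dehydrin, LEA and desiccation genes, BURP10 was the member called in its brightest probe set, 3 were higher and 2 lower at an unadjusted p under 0.05 (5 and 2 in the blocked fit), and the median log2 change was 0.17. Over all 17905 genes with a probe set, 6.28% were higher and 5.52% lower at that p, and the median was 0.03. Of 71 genes of abscisic acid synthesis and signalling, PM19L1 was called, 3 were higher and 5 lower, with a median of -0.03. The other 4 lower members were protein phosphatases 2C, a family of which a part holds abscisic acid signalling off, among them PP2C27 (-0.81, adjusted p = 0.19) and PP2C71 (-0.66, adjusted p = 0.35). SAPK7, a kinase of the SnRK2 family, had a change of 0.62 (adjusted p = 0.36).

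Called genes named for defence included PIR7B, 2 of PR-1 type, a gamma-thionin and a disease resistance response-like gene, which fell, and an acidic endochitinase, which rose. PIR7B (LOC_Os01g70850), an esterase that rice makes after bacterial infection, had 2224.1, 2565.2 and 3324.9 units in the control and 217.5, 208.6 and 244.3 under salt, and fell by 3.40 (SE 0.27, adjusted p = 0.00955). In IR29 its control signals of 1162.9 and 1967.8 stood against 611.2, 1136.4 and 922.2 under salt. The difference between the genotypes' responses had an unadjusted p of 6.7e-05, which did not pass the adjustment. Of the PR-1 type genes, LOC_Os07g03730 had 558.3, 571.7 and 539.4 against 208.7, 102.5 and 103.2 units (log2 change -1.85, SE 0.25, adjusted p = 0.069), and LOC_Os07g03467 had a change of -3.03 (SE 0.44). Between them the control arrays differ: the first was even across its replicates, the second ran from 496.5 to 2033.4.

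LOC_Os03g03810, a gamma-thionin (a plant defensin), had 2065.3, 2946.5 and 1536.0 units in the control and 496.8, 605.1 and 265.0 under salt, a change of -2.20 (SE 0.34, adjusted p = 0.077). IR29 had a change of -2.08 for it. LOC_Os03g59440, a disease resistance response-like protein, fell by 1.42 (SE 0.18, adjusted p = 0.067), and its IR29 value was -1.38. The acidic endochitinase LOC_Os04g27980, which cleaves chitin, went the other way: from 75.4, 142.2 and 79.8 to 296.2, 272.4 and 478.0 units, a rise of 1.54 (SE 0.26, adjusted p = 0.099, and 0.143 in the blocked fit).

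On the list of 15 PR proteins PIR7B was the called member, 4 were lower and 0 higher at an unadjusted p under 0.05, and the median was -0.22. PBZ1, a PR-10 protein that probenazole induces, had the largest change of the uncalled members: 12338.8, 3647.1 and 4176.0 against 1354.0, 292.7 and 1783.5 under salt (-2.62, SE 0.78, adjusted p = 0.32). In IR29 it stood at 640.5 and 3407.8 in the control and 3261.0, 3654.4 and 6947.0 under salt, a change of 1.53. The xylanase inhibitor RIXI had a change of -1.62 (adjusted p = 0.45) and the chitinase CHT8 one of -1.26 (adjusted p = 0.19). Of 40 genes of salicylate and innate immunity signalling none was called, and the median was -0.06.

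The diterpenoid phytoalexin genes were lower in salt-stressed FL478, though none reached the adjusted threshold. Of 18 genes, 8 were lower (44.4%) and 1 higher at an unadjusted p under 0.05 in limma, against 5.52% and 6.28% of all genes. Their median log2 change was -0.78 (0.03 over all genes), and 15 of 18 had a lower mean log2 level (8118 of all 17905 genes did). All the gene lists, this one included, were drawn up with earlier results of these arrays known, so their directions are not independent evidence.

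The genes sit at several steps of the pathway. CPS2, a copalyl diphosphate synthase that performs the first cyclization, had 597.5, 327.9 and 93.2 units in the control and 29.0, 17.5 and 57.9 under salt (-2.24, SE 0.67, adjusted p = 0.33). KSL4, a cyclase of momilactone synthesis, had 608.2, 53.7 and 107.3 against 1.0, 1.2 and 16 (-2.39, SE 0.73, adjusted p = 0.34). KSL7, a cyclase of phytocassane synthesis, had a change of -1.20 (adjusted p = 0.37), and KSL5, another kaurene synthase-like enzyme, was the higher member at 0.83 (adjusted p = 0.42). Among the oxidases, CYP99A2, of momilactone synthesis, had 3549.2, 1195.4 and 953.1 units in the control and 139.7, 42.3 and 243.3 under salt. Its change of -3.42 (SE 0.65, unadjusted p = 0.00036, adjusted p = 0.13) was the largest in the list. The other P450 enzymes below that unadjusted threshold were CYP701A8 (-2.07), CYP71Z7 (-1.43) and CYP76M5 (-1.02), and the dehydrogenase MAS, which makes momilactone A, had -0.92. Salt and control arrays did not overlap in 7 of these genes, and in MAS control replicate 2 lay under salt replicate 3. Over the whole list 8 genes had no overlap and were lower, against 8.01% of all genes.

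By the RefSeq annotation 8 of the genes lie on chromosome 2, 5 on chromosome 4, 4 on chromosome 6 and 1 on chromosome 12, and rice is known to hold clusters of these genes on the chromosomes numbered 2 and 4. The median change was -1.72 for the genes on chromosome 4, -0.80 on chromosome 2 and -0.12 on chromosome 6. One array stood out: FL478 control replicate 1 was the highest control array in all 8 of the lower genes, and salt replicate 3 the highest salt array in 6. Without that control array the median was -0.58 and 7 genes were lower at an unadjusted p under 0.05. With the GAPDH ratio as a covariate the median was -0.74 and 5 were lower.

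In IR29 the median of the same 18 genes was 0.34, and 8 of them had an unadjusted p under 0.05 for the difference between the genotypes' responses, against 622 of all 17905 genes. For CYP99A2 the IR29 signals were 57.8 and 188.8 in the control and 191.7, 161.4 and 534.0 under salt (difference of log2 changes 4.47, unadjusted p = 0.00098, adjusted p = 0.95). The FL478 control arrays were thus above every IR29 array for this gene, and the FL478 salt arrays lay within the range of the IR29 arrays or under it. CYP701A8 differed between the genotypes at an unadjusted p of 0.0063 and CYP76M5 at 0.0015. None of these passed the adjustment over all probe sets.

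**Figure D2:**
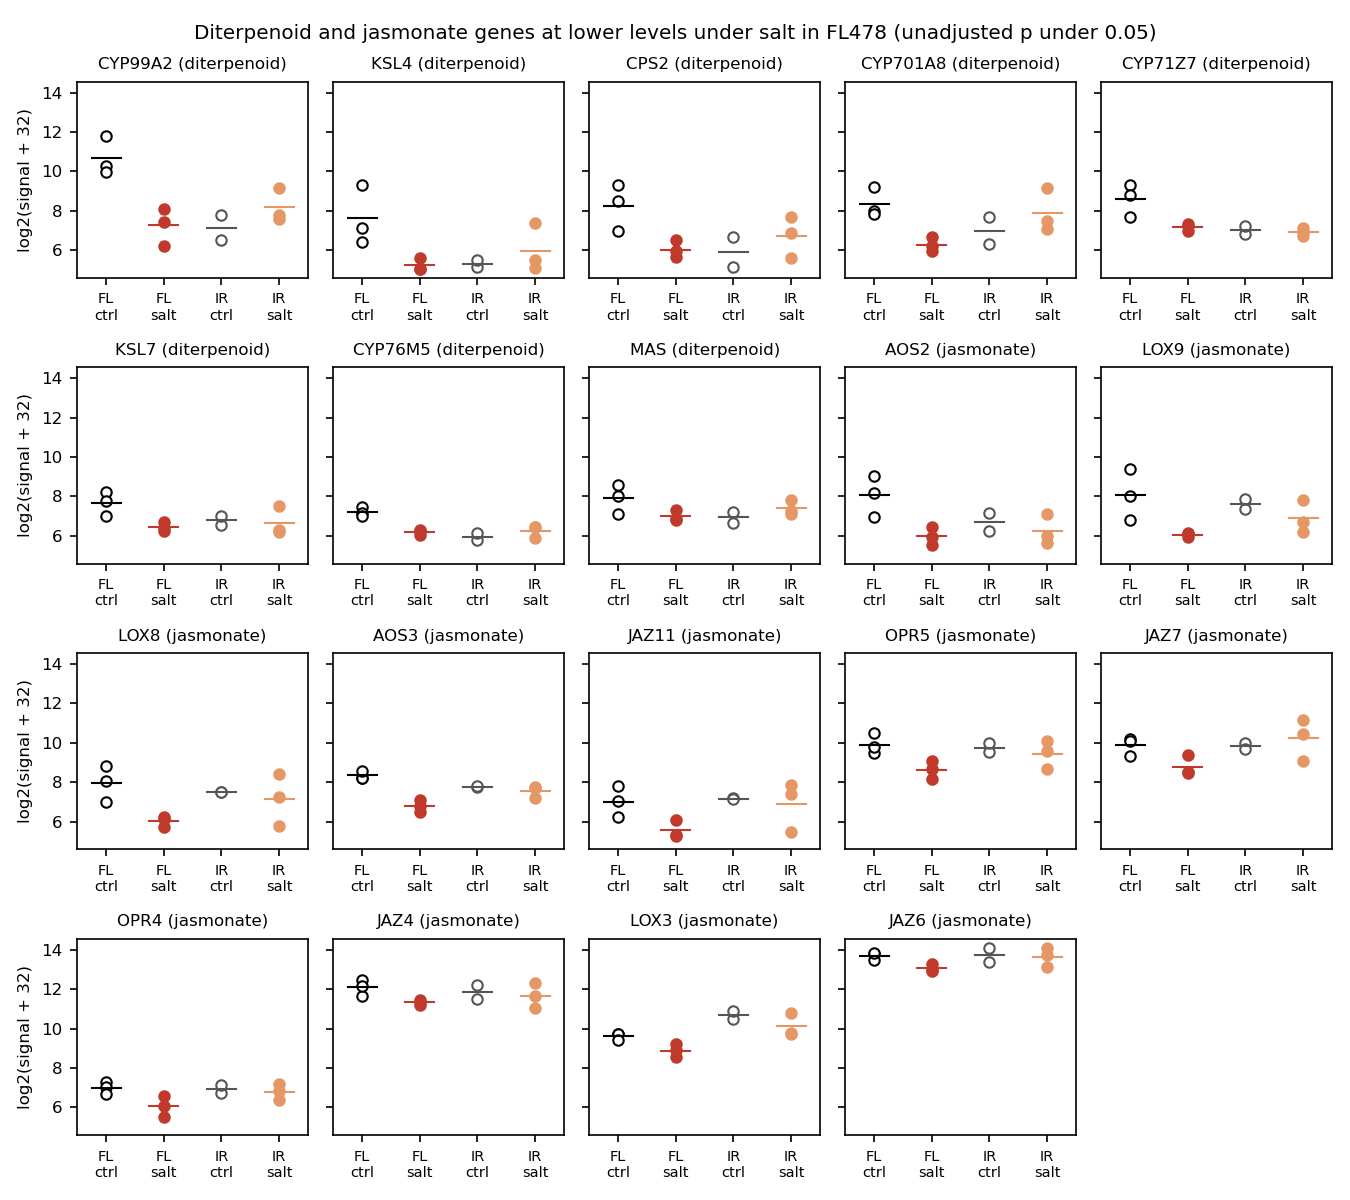
Level of each diterpenoid phytoalexin and jasmonate gene that was lower under salt in FL478 at an unadjusted p under 0.05, as log2(signal + 32) on the vertical axis, with 1 point per array and a line at the group mean (FL, FL478, 3 control and 3 salt arrays; IR, IR29, 2 and 3). In CYP99A2 the 3 FL478 control arrays lie above all others, while in the jasmonate genes the IR29 groups mostly overlap.

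Jasmonate genes were lower in FL478 under salt as a group of 39. At an unadjusted p under 0.05, 11 were lower (28.2%, and 17 genes in the blocked fit) and 0 higher. Over all probe sets the blocked fit also gave more at that p, 5952 against 5136. The median of the list was -0.63, and 29 of its genes had a lower mean log2 level. The called member was AOS3 (LOC_Os02g12680), an allene oxide synthase, with 269.5, 267.6 and 345.4 units in the control and 80.5, 57.5 and 106.2 under salt. It fell by 1.54 (SE 0.21, adjusted p = 0.069). In IR29 it stood at 183.3 and 188.5 against 186.5, 115.1 and 175.3 (change -0.21, unadjusted p of the difference 0.0020).

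The 11 lower genes included lipoxygenases, allene oxide synthases, reductases and JAZ repressors. Of the lipoxygenases, which oxidize linolenic acid, LOX9 had 648.3, 81.2 and 230.2 units against 35.3, 38.7 and 29.1 (-2.04, SE 0.58, adjusted p = 0.30), and LOX8 had -1.93. AOS2, the other allene oxide synthase below the threshold, went from 497.2, 90.5 and 255.5 to 53.7, 14.1 and 30.4 units (-2.08, SE 0.55, adjusted p = 0.26). These 3 genes were highest in control replicate 1 and lowest of the control arrays in replicate 2. The reductase OPR5 had a change of -1.28 (adjusted p = 0.34), and the repressor JAZ11 one of -1.45 (adjusted p = 0.49). Single arrays weigh on the list: the number of lower genes was 6 without FL478 control replicate 1, 17 without control replicate 2, 7 without control replicate 3 and 7 without salt replicate 1. With the GAPDH ratio as a covariate it was 3, with a median of -0.26. In IR29 the median was -0.02. Of the 39 genes 1, AOS3, had an unadjusted p under 0.05 in limma for the difference between the genotypes' responses, against 622 of all 17905 genes.

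Enzymes of secondary metabolism and conjugation changed in both directions. A pair of O-methyltransferases described as ZRP4, an enzyme first found in maize roots, moved apart: LOC_Os11g12760 went from 45.3, 68.0 and 129.3 to 485.1, 329.2 and 334.5 units (a rise of 1.93, SE 0.30, adjusted p = 0.078, and 0.115 in the blocked fit), and LOC_Os12g25490 from 563.8, 729.1 and 752.7 to 37.9, 74.3 and 116.5 (a change of -2.78, SE 0.31, adjusted p = 0.055). Both had the same direction in IR29, at 0.93 and -1.06. A dihydroflavonol reductase-like gene, LOC_Os09g09230, rose by 2.23 (SE 0.26, adjusted p = 0.057), and the beta-glucosidase BGLU16, which releases sugars from conjugates, rose by 1.26 and 0.93 in its 2 probe sets.

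Detoxifying and conjugating enzymes were among the falls. The glutathione S-transferase GSTU6 (LOC_Os10g38495) had 1357.1, 1357.5 and 1269.4 units in the control and 236.7, 353.8 and 605.6 under salt, a change of -1.75 (SE 0.28, adjusted p = 0.082). Its change in IR29 was -0.02. The glucosyltransferase LOC_Os07g31960, described as acting on anthocyanidins, fell by 1.42 (SE 0.22, adjusted p = 0.077, and 0.113 in the blocked fit). P450 genes named for enzymes of other species fell as well, LOC_Os01g43774 (CYP72A1, -2.94) and LOC_Os06g19070 (CYP76C2, -1.33, adjusted p = 0.104 in the blocked fit). So did LOC_Os04g27060, of aldo-keto reductase type and described as the auxin-induced protein PCNT115 (-2.65). Of the 29 P450 genes on their list 7 were lower and 1 higher at an unadjusted p under 0.05, with a median of -0.35. Of these 7, 6 also stand in the diterpenoid or jasmonate list. LAC24, a laccase, had a change of -2.20 (SE 0.48, adjusted p = 0.19), and GST1 one of 1.01 (adjusted p = 0.23).

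Single genes of the bZIP, bHLH and ethylene-responsive factor types were called as lower. bZIP52 (LOC_Os06g45140), described as like the parsley factor CPRF-2, had 3275.6, 1975.8 and 1847.6 units in the control and 892.1, 888.5 and 647.1 under salt, a change of -1.48 (SE 0.25, adjusted p = 0.093). The bHLH gene LOC_Os05g46370 fell by 1.70 (SE 0.25, adjusted p = 0.070), from 325.1, 291.8 and 538.9 to 79.3, 92.5 and 106.4. LOC_Os01g72370, named for Arabidopsis ORG3, a bHLH factor of iron deficiency, had 1145.9, 674.6 and 1003.5 against 241.2, 197.2 and 357.8 units (a change of -1.71, SE 0.28). In IR29 that gene had a change of 0.24, while bZIP52 had -1.19 and LOC_Os05g46370 -0.89. The ethylene-responsive factor-like LOC_Os03g22170 was called in both genotypes, with changes of -1.79 and -2.68. Of 21 listed bZIP genes 2 were lower and 0 higher at an unadjusted p under 0.05 with a median of -0.07. Of 13 listed bHLH genes 3 were lower and 3 higher (3 and 2 in the blocked fit) with a median of -0.21.

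Among the lists WRKY factors, which act in defence, had the lowest median (-1.19 over 6 genes, 2 lower at an unadjusted p under 0.05, and 5 in the blocked fit). WRKY62 had 186.6, 115.4 and 248.0 against 22.6, 53.8 and 54.3 units (-1.49, adjusted p = 0.23), and WRKY76 had -1.28. With 6 genes the median moved with single arrays, from -0.71 without FL478 control replicate 1 to -1.55 without control replicate 2. Of 8 NAC factors 3 were lower and 0 higher, led by NAC45 (-0.97, adjusted p = 0.16), and of 11 MYB factors 2 were lower, led by MYBAS1 (-1.33, adjusted p = 0.41). Of 12 AP2/ERF factors 0 were below that p in either direction.

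Genes of other hormones gave scattered calls. Cytokinin dehydrogenase (LOC_Os01g09260), which degrades cytokinin, went from 804.2, 756.8 and 792.2 to 367.3, 431.0 and 370.3 units, a change of -0.96 (SE 0.15, adjusted p = 0.078, and 0.113 in the blocked fit). On the list of 32 cytokinin genes 4 more were lower and 0 higher at an unadjusted p under 0.05: the dehydrogenases CKX4 (-0.78) and CKX5 (-1.04) and the activating enzymes LOGL1 (-0.86) and LOGL9 (-0.67). A gibberellin-regulated protein of the GASA type, LOC_Os03g41060, rose by 1.27 (SE 0.20, adjusted p = 0.078), from 313.7, 468.5 and 377.0 to 904.7, 929.3 and 1079.2. LOC_Os01g55560, with no described function, rose by 1.19 (adjusted p = 0.113 in the blocked fit). Of 68 auxin genes 2 were higher (4 in the blocked fit) and 6 lower, among them the conjugate hydrolase ILL3 (-1.58, adjusted p = 0.21) and the efflux carriers PIN5A (-1.35) and PIN5 (-1.30), all without a call. The called probe set of LOC_Os04g27060, described as auxin-induced, was not counted in that list.

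Proteases changed in both directions. The subtilisin-like protease LOC_Os01g64860, a secreted serine protease type, had 47.1, 57.6 and 45.8 units in the control and 220.9, 203.9 and 275.5 under salt, a rise of 1.69 (SE 0.25, adjusted p = 0.070). A neighbouring locus by number, LOC_Os01g64840, a nepenthesin-type aspartic protease, fell by 1.72 (SE 0.24, adjusted p = 0.069), from 725.4, 1046.6 and 949.1 to 173.9, 350.1 and 250.9. The brightest of them was LOC_Os01g24550, a cysteine protease described as a bromelain precursor, with 18288.7, 19019.9 and 17852.3 in the control and 7754.5, 7825.4 and 5857.8 under salt. It fell by 1.37 (SE 0.20, adjusted p = 0.069). In IR29 the same 3 genes had changes of 1.00, -1.53 and -1.13.

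Spermidine synthase (LOC_Os06g33710), which makes the polyamine spermidine, had 956.2, 663.5 and 1137.8 units in the control and 2504.8, 2156.5 and 2806.3 under salt. It rose by 1.43 (SE 0.20, adjusted p = 0.069). In IR29 it was already at 1690.9 and 1891.8 in the control and stood at 2625.8 to 2860.3 under salt. Conversely, an amino acid-polyamine transporter, LOC_Os01g61044, fell from 626.8, 621.4 and 739.2 to 228.7, 231.0 and 227.9 (by 1.41, SE 0.17, adjusted p = 0.057). A nodulin-like protein, LOC_Os05g41420, went from 2854.6, 3075.9 and 3505.3 to 1314.8, 630.4 and 463.3 (a change of -2.06, SE 0.32, adjusted p = 0.078), with -2.29 in IR29. The sulfate transporter LOC_Os03g06520, of type 3.1, rose by 1.17 (SE 0.20, adjusted p = 0.0994, and 0.123 in the blocked fit) from 3.3, 7.7 and 21.1 to 81.9, 59.5 and 49.3, and in IR29 it went from 5.0 and 2.6 to 72.4, 62.8 and 91.0.

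Sulfur assimilation and methionine salvage had lower values without a call. Of 14 genes 12 had a lower mean log2 level, 4 were lower and 0 higher at an unadjusted p under 0.05, and the median was -0.44. SAT1, a serine acetyltransferase of cysteine synthesis, had 10427.0, 9873.1 and 8592.4 against 6044.2, 3423.4 and 4172.8 units (-1.11, adjusted p = 0.34). The others were IDI2 (-0.95), ARD2 (-0.85) and MTK1 (-0.77), which belong to the cycle that recovers methionine from ethylene and nicotianamine synthesis. The probe set of ARD2 carries the name of a heat shock factor in the annotation as well. Among 23 nitrogen genes 2 were higher and 4 lower, with the ammonium transporters AMT3-2 at 0.97 and AMT2-3 at -1.04. The gene GDH2 and a further ammonium transporter, AMT2-1, had larger falls than AMT2-3. Among 14 ABC and MATE transporters 3 were lower, and ABCG36, of the type that exports many small molecules, had 1151.7, 275.7 and 662.4 against 116.6, 140.7 and 119.4 units (-2.01, SE 0.55, adjusted p = 0.27).

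For compatible solutes, the small molecules that hold water in the cell, none of 16 genes was called, with 2 higher and 3 lower at an unadjusted p under 0.05. P5CS2, which makes proline, had 53.8, 95.8 and 143.8 units in the control and 181.2, 321.6 and 151.7 under salt (0.95, adjusted p = 0.48). Trehalose-phosphate phosphatases lay on both sides: TPP2 at -1.57 (SE 0.35, adjusted p = 0.19, and 0.0986 in the blocked fit) with 2165.9, 1568.2 and 2765.5 against 630.5, 693.0 and 750.5 units, TPP9 at -1.03, and the dim TPP6 at 0.83. Of 60 chaperones and heat shock genes none was called, 2 were higher and 5 lower (8 in the blocked fit) at an unadjusted p under 0.05, and the median was 0.02. The lower genes were 4 small heat shock proteins, HSP17.3 leading (-2.35, adjusted p = 0.23), and ARD2.

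Lists tied to growth had small positive medians. Of 25 ribosomal protein genes 1 had a lower mean log2 level and the median was 0.22, with 1 gene above the unadjusted threshold. Of 52 cell division genes 3 were higher and 0 lower (3 and 1 in the blocked fit), with a median of 0.16. Without FL478 control replicate 1 no cell division gene passed. For 6 suberin and Casparian strip genes, which seal the root against passive entry, the median was 0.56, with the lipid transfer protein LTP110-A at 0.62 (adjusted p = 0.35) and the transporter RCN1 at 0.66. Genes of calcium signalling (89, 6 higher and 8 lower) and gibberellin (13) had medians of 0.01 and 0.02. In all, 6 of the 37 lists held a called gene in its brightest probe set, and 23 had a median below 0.

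**Figure D3:**
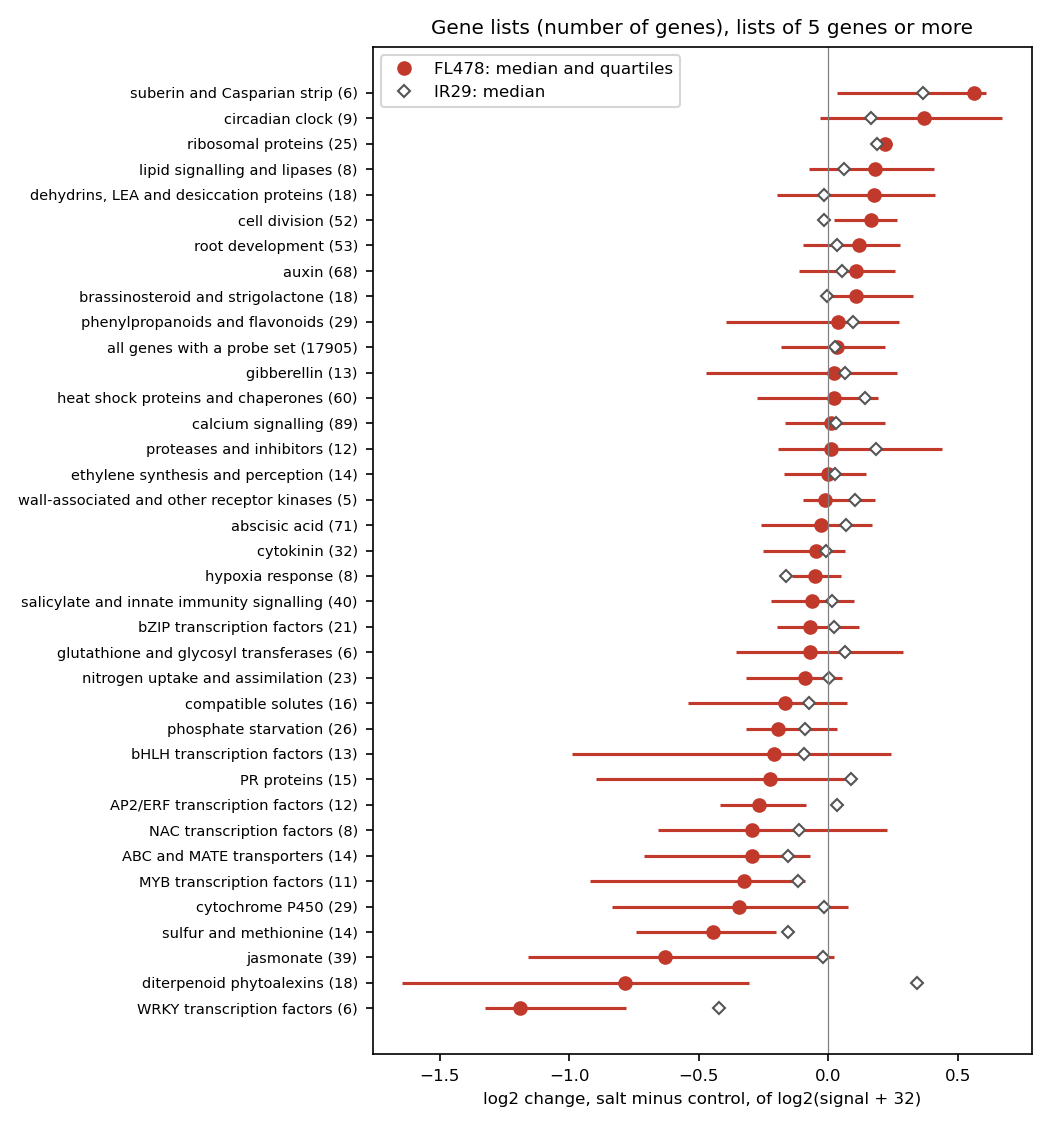
Median log2 change by salt (horizontal axis, salt minus control) of each gene list with 5 genes or more, with the number of genes in brackets; filled circles and bars are the FL478 median and quartiles, open diamonds the IR29 median. WRKY factors, diterpenoid phytoalexin genes and jasmonate genes have the lowest FL478 medians (-1.19, -0.78 and -0.63), and the diterpenoid list lies on opposite sides of 0 in FL478 and IR29.

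Several of the strongest falls were in proteins of unknown function. LOC_Os01g45470 was among the brightest, with 6409.7, 8000.5 and 6295.7 units in the control and 1598.4, 1111.0 and 878.8 under salt (a change of -2.53, SE 0.30, adjusted p = 0.057), and IR29 had -1.91. LOC_Os01g45914 fell by 3.07 (SE 0.43), from 3651.2, 3383.6 and 4173.6 to 200.3, 451.4 and 757.1. LOC_Os08g05960 and LOC_Os08g05970, neighbours by locus number, had changes of -1.91 and -2.33, both called (the first at an adjusted p of 0.104 in the blocked fit). Among the rises, 2 probe sets of LOC_Os01g10400 moved together, by 1.56 and 1.37 (adjusted p = 0.069 and 0.057), and LOC_Os06g38580 went from 1139.9, 951.1 and 712.9 to 2286.8, 2999.8 and 2603.3 units (1.48, SE 0.24). LOC4324556 fell by 3.67 in FL478, with 2775.6, 473.2 and 1599.4 units against 39.7, 84.9 and 101.5, and had -0.28 in IR29.

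A kinase and further enzymes were among the named falls. LOC_Os01g46720, a protein kinase, fell by 1.92 (SE 0.31, adjusted p = 0.081, and 0.111 in the blocked fit) from 6551.3, 4374.4 and 5612.4 to 1418.3, 1556.7 and 1283.4 units, with -0.49 in IR29. Changes of -1.11 in LOC_Os12g44190, an ATPase, -1.15 in the nudix hydrolase LOC_Os04g46280 (adjusted p = 0.118 in the blocked fit), -1.28 in the FIP1 gene LOC_Os04g44500 and -1.49 in the phosphatase LOC_Os03g52720 were also called. Their signals were even across replicates: for LOC_Os04g44500 they were 3096.3, 2757.8 and 2880.7 in the control and 1241.1, 1317.0 and 1008.7 under salt.

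The same probe sets were then read in IR29, whose arrays were not used to choose them except through the shared spread. Of the 97, 88 had the same sign there (90.7%, against 56.9% of all probe sets), 27 of the 28 rises and 61 of the 69 falls. An unadjusted p under 0.05 in the same direction was reached by 22 of the rises and 29 of the falls, and in the opposite direction by 2 of the 97. Of all probe sets 6.18% had such a p in either direction. The median change of the rises was 1.36 in FL478 and 0.84 in IR29, and of the falls -1.55 and -0.66. The probe sets were chosen for a large change in FL478, which by itself makes the FL478 medians the larger. As in FL478, the log2 GAPDH ratio was higher on the IR29 salt arrays (0.89, 1.03 and 0.71) than on the IR29 control arrays (0.66 and 0.65). The part of this shared difference in RNA integrity in the shared directions was not tested. In IR29 3 probe sets were called (0.00524%), of which 1 was called in FL478 too. The test of the difference between the 2 responses called 0 probe sets (limma, 2596 with an unadjusted p under 0.05, 4.53%). That count depended on the setting: it was 41 with a floor of 32, 3 among the brighter probe sets, 18 without IR29 control replicate 2 and 1 without IR29 salt replicate 1.

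**Figure D4:**
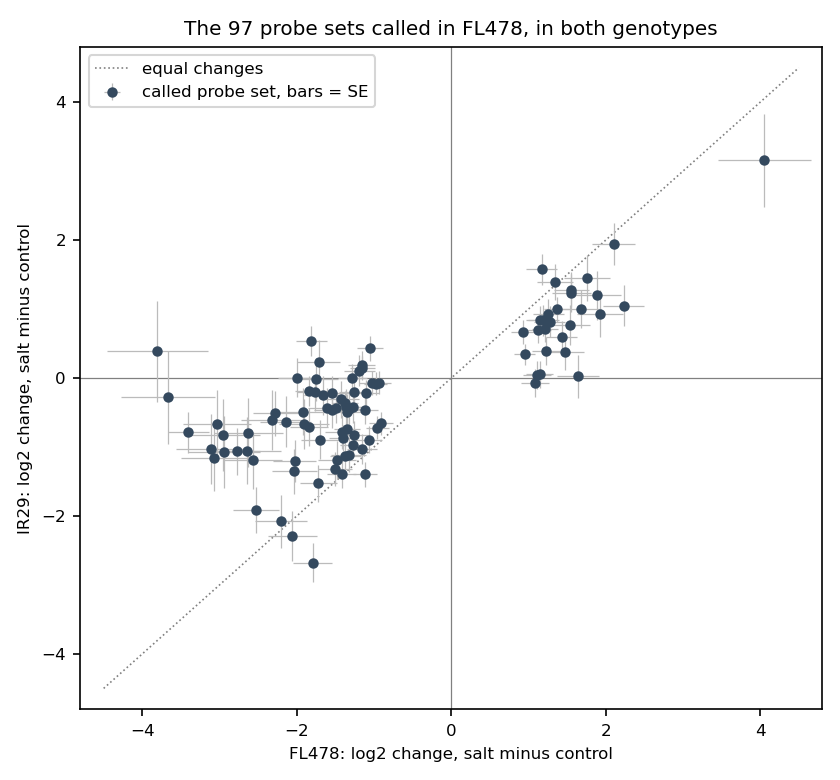
Log2 change by salt in FL478 (horizontal axis) and IR29 (vertical axis) of the 97 probe sets called in FL478, with bars of 1 standard error and a dotted line of equal changes. Of the 97 points 88 lie in the quadrants of equal sign, and most lie closer to 0 on the IR29 axis.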

How the data were processed

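Per the labels, the authors hybridised 1 Affymetrix Rice Genome Array per biological replicate, and the deposited table holds linear signal intensity values that they made with GCOS (version not given in the sources used here). The tests of the study used RMA values, which were not used here. The 123 probe sets starting with AFFX were left out. The 4 group means were fitted to log2(intensity + 32) over all 11 arrays with limma 3.58.1 in R 4.3.3 (7 residual and 3.00 prior degrees of freedom), after the fit had been tested on simulated data. Tables and figures were made with Python 3.11.15, pandas 2.3.3, numpy 2.4.6 and matplotlib 3.10.9. No value column was left unmapped.

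The annotation gives 1 gene for 22436 of the 57258 probe sets, several for 95 and none for 34727. Loci and descriptions come from tables of the study, which list probe sets it chose on these arrays. Genes were grouped into 37 lists by symbols and synonyms, and 70 matches of unrelated genes were removed. For each gene the brightest probe set was taken. The members and lists were chosen with earlier results of these data known. Genes named are the 15 largest rises and 15 largest falls of called probe sets that are brighter than the median and whose arrays do not overlap, up to 4 genes per list with an unadjusted p under 0.05, and other called probe sets with a name that share a function with these. Members of a list named beyond its 4 largest changes were added after their values were seen. Same-numbered FL478 salt and control arrays deviated together at r of 0.331, 0.136 and 0.194 over the probe sets brighter than the median, where the check was first made, and at 0.177, 0.0721 and 0.110 over all probe sets. Differently numbered arrays had r of -0.229 to 0.00979 over the brighter probe sets. Deviations from a group mean cancel out, so these correlations are not independent and some matching must come out highest. Neither the labels nor the methods state a pairing, and the check did not cover IR29. Whether the label numbers pair the arrays therefore cannot be decided by this check. The main fit assumes no pairing, and the blocked fit is given where it changed a call. Alternatives were offsets of 16 and 64, a floor of 32, quantile normalization, only the brighter probe sets by the median, an intensity trend with robust variance, only the FL478 arrays, the replicate number as a block, the GAPDH ratio as a covariate, an adjusted p under 0.05, the mean over a gene's probe sets, and leaving out each array.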

Additional observations from a re-analysis of the deposited data

Results flagged for a closer look

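In 3 of the genes named by the rules above the salt arrays lay apart from the control arrays in opposite directions in the 2 genotypes. For each the difference of responses (IR29 minus FL478) was tested. SNAC2, a NAC factor of rice stress responses, had 5330.1, 2716.0 and 2610.2 units in the control and 2549.8, 2071.8 and 2112.2 under salt in FL478, against 1932.2 and 2012.6 in the control and 2512.4, 2331.1 and 2945.4 under salt in IR29 (difference 0.96, unadjusted p = 0.032). BHLH005, the tapetum factor TDR, was dim, with 64.9, 59.8 and 63.8 against 7.4, 8.6 and 4.0 units in FL478 and 5.3 and 4.3 against 9.0, 47.2 and 53.7 in IR29 (difference 2.12, unadjusted p = 0.000198, adjusted p = 0.57). MCM7, of the helicase that opens DNA for replication, had 397.9, 476.6 and 463.1 against 493.9, 733.9 and 586.4 units in FL478 and 689.6 and 659.6 against 548.1, 604.3 and 529.7 in IR29 (difference -0.66, unadjusted p = 0.026). None passed the adjustment over all probe sets in limma.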

How the results depend on the processing

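The main counts of 97 called, 28 higher and 69 lower became 171, 60 and 111 with an offset of 64, 14, 2 and 12 with an offset of 16, 145, 54 and 91 with a floor of 32, 220, 74 and 146 where only the brighter probe sets were fitted, and 256, 75 and 181 with an intensity trend and robust variance. They were 1, 0 and 1 with only the FL478 arrays and at an adjusted p under 0.05, and 0, 0 and 0 with the GAPDH ratio. Quantile normalization gave 83, 24 and 59. The difference between genotypes, 0 in the main fit, had 41 calls with the floor and 3 among the brighter probe sets. Leaving out 1 array gave 1 to 86 called, 0 to 21 higher, 1 to 65 lower and 0 to 18 for the difference (18 without IR29 control replicate 2, 1 without IR29 salt replicate 1). The cause of these shifts was not tested. In the named genes 1161 values kept their side of the threshold under the alternatives other than leaving out an array, 309 lost and 21 gained it, and no called value changed its sign.

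With the replicate block, that is, the replicate number as a block, the counts were 127, 26 and 101, and 70 of the 97 were still called. The blocked values stand beside the genes described whose call ended or, for TPP2, appeared, and the blocked fit changed the FL478 call of no other gene described. Over all probe sets 1 of the 3 same-numbered pairs fell short of a correlation of 0.1, and over the brighter probe sets none did. Some lists are described above with main counts only. At an unadjusted p under 0.05 the blocked fit had 5 higher calcium signalling genes and 2 higher ribosomal protein genes (6 and 1 in the main fit). It had 3 lower MYB, 3 bZIP, 9 P450 and 5 sulfur and methionine genes (2, 2, 7 and 4 in the main fit).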
